A study of Rattus norvegicus with 28 samples.

Results

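Cell junction genes of the rat lung were described across lungs that had been injured, ventilated, both or neither. The set held 38 genes of 17002 in the table, chosen by name: claudins, cadherins other than the endothelial Cdh5, connexins, desmogleins, plakophilins, Tjp genes, Dsp, Ocln and Jup, with a mean of at least 10 normalised counts over the 28 libraries. The name rule alone found 47 genes, and 9 of them, among them Cdh9, Cdh16, Cdh19, Cldn9, Cldn22, Gja3, Gjb6 and Gjc3, lay below the minimum, Gja3 at a mean of 7.11. Just above it were Cdh15 at 11.9 and Gjb5 at 14.8. A normalised count is the number of reads of a gene divided by the size factor of its library, as deposited.

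All libraries came from the right upper lobe of Sprague Dawley rats, in 8 groups given here by their labels. Lungs ventilated after acute injury received variable tidal volumes (acute_noisy, n = 4) or constant ones (acute_VCV, n = 3). Chronically injured lungs were ventilated in the same modes (chronic_noisy, n = 3, and chronic_VCV, n = 3), as were uninjured lungs (healthy_noisy, n = 3, and healthy_VCV, n = 4). Unventilated lungs were taken 14 days after chronic injury was induced (control_chronic, n = 5) or had no injury (control_blank, n = 3). The labels name neither the agent of injury nor the age of the rats, and they give no unventilated group with acute injury. They do not say that each library is a separate animal, so p-values measure the spread between these libraries.

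Neighbouring cells are held together and sealed by several kinds of junction. In tight junctions claudins and occludin close or open the path between cells, and Tjp proteins tie them to actin. Cadherins join cells at adherens junctions. Desmogleins do so at desmosomes, where plakoglobin, plakophilins and desmoplakin link them to intermediate filaments. Connexins form the channels of gap junctions through which ions and small molecules pass from cell to cell. In the alveolus these contacts keep fluid out of the airspace, and in vessel walls connexins couple endothelial and muscle cells. By role the 38 genes were 12 claudins, 3 other tight junction genes, 9 cadherins, 3 desmosomal cadherins, 4 plaque genes and 7 connexins. Cldn3, Cldn5 and Cldn18 are not analysed here.

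Depth ran from 6024093 to 31923838 recovered reads per library, lowest in control_chronic and highest in acute_VCV. Lung markers were present in every library, with summed alveolar type 2 markers at 257490.1 to 502567 normalised counts in acute_noisy lungs and 534159.6 to 805439.7 in control_blank lungs. In whole tissue, fewer cells of a type and less RNA per cell cannot be told apart. Library titles carry numbers beginning with 12, 14, 15 or 18, a number series whose meaning the labels do not give. All acute_VCV and control_blank libraries belong to series 12 and all control_chronic libraries to series 18. All chronic_noisy libraries are of series 14, and all chronic_VCV and healthy_noisy libraries are of series 15. The acute_noisy group is split between 2 libraries each of series 14 and 15, and healthy_VCV has 3 of series 14 and 1 of series 15. Of the comparisons with an unventilated group, the one of acute_VCV with control_blank therefore lies within 1 series, and in every other the series and the groups cannot be told apart. Changes are log2 differences ± SE from limma, adjusted over all 14908 genes tested with a threshold of 0.05. Each library was also left out on its own, and where several are named as losing a call, each did so alone.

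Acute injury with constant-volume ventilation was read from acute_VCV against control_blank lungs, which differ in both injury and ventilation. Of the 38 junction genes 12 rose and 7 fell, and of all genes 20.6% rose and 16.7% fell, 37.3% in all. The median change was 0.28 for the junction genes and 0.07 for all genes. Connexins of epithelium and vessels, Cldn4 and E-cadherin rose, and claudins 8, 10 and 11 fell.

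Cldn4, a claudin that tightens epithelial junctions, had 4165, 2965 and 3559 normalised counts in acute_VCV lungs, against 319.5, 617 and 387 in control_blank lungs. The lowest acute_VCV value was far above the highest control_blank value, and the change was 3.05 ± 0.37 (adjusted p = 3.25e-06), or 8.31-fold. Cldn6, a claudin best known from embryonic epithelium, had 253, 136 and 175 in acute_VCV lungs, against 52.7, 129.7 and 80.8 in control_blank lungs. Its groups lay close together without overlapping, and the change of 1.14 ± 0.35 (adjusted p = 0.0141) was lost without either control_blank_074 (adjusted p = 0.0856) or acute_VCV_040 (0.069). Cldn7, found in most epithelia, rose by 0.77 ± 0.22 with overlapping groups, and that call was lost without control_blank_074 (adjusted p = 0.0725). Summed basal cell markers, which include keratins, were at 590.5 to 658 in acute_VCV lungs and at 321 to 558 in control_blank lungs, 1 of 3 tested markers being higher. Their part in the rise of Cldn4 was not tested.

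Among the claudins that fell, Cldn8, a sealing claudin described in kidney and gut, had 10, 1.91 and 5.88 normalised counts in acute_VCV lungs, against 33.5, 31.6 and 26.0 in control_blank lungs. All acute_VCV values lay below the control_blank range, and the change was -2.37 ± 0.55 (adjusted p = 0.00165). Cldn10, which forms ion-selective pores, had 137, 130.1 and 117.01 in acute_VCV lungs, against 371, 913 and 345 in control_blank lungs. The groups were apart, with control_blank_016 highest, and the change was -1.93 ± 0.38 (adjusted p = 0.000454). Cldn11, a claudin of myelin and testis, had 89.5, 37.6 and 27.4 in acute_VCV lungs, against 176, 155 and 335 in control_blank lungs, again without overlap, a change of -2.18 ± 0.44 (adjusted p = 0.000489). Cldn1, a barrier claudin of stratified epithelium, changed by -1.10 ± 0.37 (adjusted p = 0.0226) with overlapping groups, a call lost without any of control_blank_074 (adjusted p = 0.0989), control_blank_016 (0.152) or acute_VCV_049 (0.109). Tjp3, a scaffold of tight junctions, had 571, 352 and 556 in acute_VCV lungs, against 949, 1802 and 889 in control_blank lungs, and fell by 1.25 ± 0.30 (adjusted p = 0.00213) in log2 terms with no overlap.

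Most tested markers of airway cells were also lower in this comparison. Summed ciliated cell markers were at 1446 to 2498 in acute_VCV lungs and at 5154 to 10934 in control_blank lungs, with 5 of 5 tested markers lower. Summed club cell markers were at 186423 to 274177 in acute_VCV lungs and at 502357 to 1321114 in control_blank lungs, with 2 of 3 lower. Cdh29, a cadherin by its name in the table, was lower alongside them, a change of -1.70 ± 0.40 (adjusted p = 0.00199), with 1007, 574 and 1047 normalised counts in acute_VCV lungs and 2185, 4787 and 1992 in control_blank lungs. The part of these markers in the changes of Cldn10, Tjp3 and Cdh29 was not tested. Schwann cell markers, beside Cldn11, summed to 119.6 to 239 in acute_VCV lungs and to 249 to 371 in control_blank lungs, and their part was not tested either.

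Of the cadherins, Cdh1 (E-cadherin, the adhesion protein of epithelium) had 12503, 10436 and 15332 normalised counts in acute_VCV lungs, against 5769, 6872 and 6567 in control_blank lungs. Every acute_VCV value exceeded every control_blank value, and the change was 0.98 ± 0.18 (adjusted p = 0.000195). Cdh3 (P-cadherin, its neighbour on the chromosome) rose by 0.61 ± 0.22, a call lost without any of control_blank_074, control_blank_016, control_blank_021, acute_VCV_040 or acute_VCV_049 (adjusted p = 0.0558 to 0.108). Dsg2, the desmoglein of simple epithelium and heart, had 178, 166 and 259 in acute_VCV lungs, against 114.24, 75.4 and 88.0 in control_blank lungs, a change of 1.10 ± 0.28 (adjusted p = 0.00363) without overlap. Pkp3, an epithelial plakophilin, rose by 0.59 ± 0.18 and lost its call without control_blank_074 (adjusted p = 0.0743). Jup (plakoglobin, shared by desmosomes and adherens junctions) fell by 0.43 ± 0.16 in log2 terms, with overlapping groups, and lost its call without any of control_blank_021 (adjusted p = 0.223), acute_VCV_045 (0.142) or acute_VCV_049 (0.173). Ocln, Tjp1, Cdh2 (N-cadherin) and Dsp were not called, at 0.08 ± 0.15, 0.10 ± 0.21, -0.17 ± 0.28 and 0.62 ± 0.26.

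Of the 7 connexins 4 rose and none fell in this comparison, while of all genes 20.6% rose. Gjb5, which passed the filter only through the acutely injured groups, is among those that rose. Gja1, the most widespread connexin, had 3138, 3778 and 3532 normalised counts in acute_VCV lungs, against 1618, 1548 and 1920.04 in control_blank lungs. The groups did not overlap, and the change was 1.04 ± 0.22 (adjusted p = 0.00081). Gja5, a connexin of arterial endothelium and atrial muscle, had 2912, 4663 and 2761 in acute_VCV lungs, against 1636.06, 1548 and 1982 in control_blank lungs. It was higher throughout, by 0.97 ± 0.21 (adjusted p = 0.00093). Summed endothelial markers overlapped, at 30089 to 43539 in acute_VCV lungs and 31370.5 to 44293 in control_blank lungs, as did cardiac muscle markers, at 5881 to 14343 in acute_VCV lungs and 9731 to 16369 in control_blank lungs. Gjb5, a connexin of skin and other lining epithelium, had 46.7, 36.4 and 51.6 in acute_VCV lungs, against 11.2, 6.48 and 5.53 in control_blank lungs, a change of 2.43 ± 0.52 (adjusted p = 0.000915). The acute_VCV values of Gjb5 were tightly grouped and far above control_blank. Gjb5 reached the minimum mean for the set only through the acutely injured groups, so its rise is a description. Gja4, a connexin of arterial endothelium, was at -0.58 ± 0.28 and not called.

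**Figure D1:**
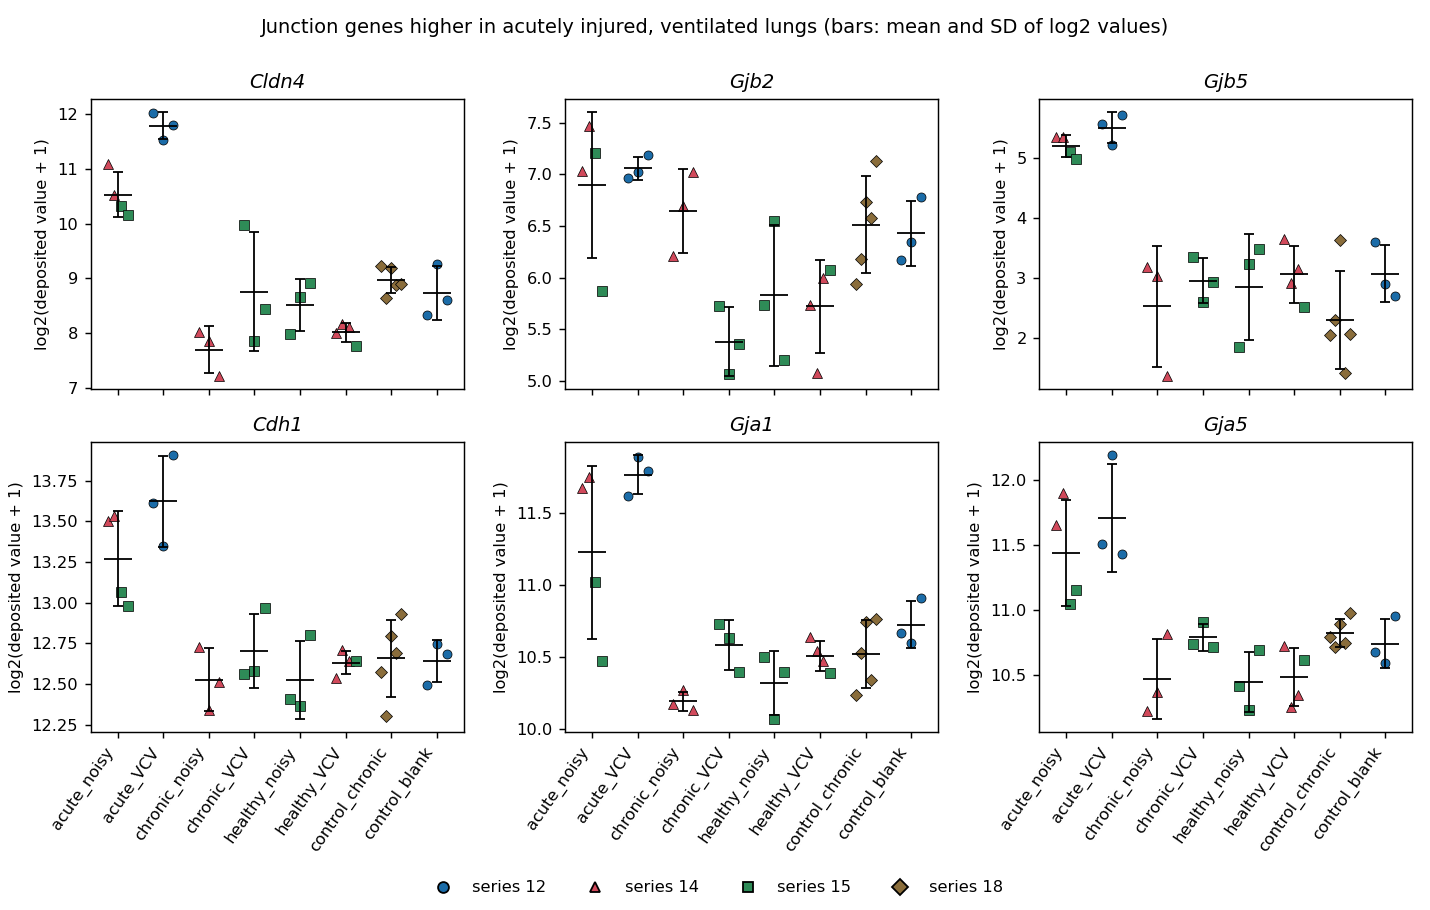
Points are libraries, grouped from acute_noisy on the left to control_blank on the right, with log2(normalised count + 1) on the vertical axis. Crossbars and whiskers give the mean and SD, and marker shapes give the number series. In each of the 6 panels both acutely injured groups have higher means than the other 6 groups, and the 2 series 14 libraries of acute_noisy lie above the 2 of series 15 in every panel except that of Gjb2.

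Acute injury with variable-volume ventilation was read from acute_noisy against the same control_blank lungs, so the comparison shares its controls with the preceding one. Of the 38 genes 12 rose and 10 fell, 57.9% of them, while of all genes 31.3% rose and 28.4% fell, 59.8% in all. Cldn4 had 2188, 1471, 1285 and 1144 normalised counts in acute_noisy lungs, all above control_blank, and rose by 1.796 ± 0.34 (adjusted p = 0.000124). Basal markers, beside Cldn4, overlapped, at 310 to 451 in acute_noisy and 321 to 558 in control_blank lungs. Of these markers 0 of 3 were called, and their part was not tested. Gjb5 had 39.8, 39.6, 33.4 and 30.6 and rose by 2.12 ± 0.49 (adjusted p = 0.000791). Cdh1 had 11616, 11863, 8568 and 8065 in acute_noisy lungs, with no overlap with control_blank, and rose by 0.63 ± 0.17 (adjusted p = 0.00253). Gja5 had 3218, 3820.2, 2114 and 2285, also without overlap, and rose by 0.70 ± 0.20 (adjusted p = 0.00389). Gja1, with 3254, 3441, 2069 and 1417, overlapped control_blank, and its rise of 0.50 ± 0.21 (adjusted p = 0.0389) was lost without any of control_blank_074, control_blank_016, acute_noisy_047 or acute_noisy_050 (adjusted p = 0.0898 to 0.17) and under quantile normalization (adjusted p = 0.0907). With the acute_noisy libraries of series 15 alone 14 of the 38 genes were called. The share of all genes called in that setting was not counted, so the number cannot be read as particular to these genes. Cldn4 then kept a change of 1.51 (adjusted p = 0.00548), while Cdh1, Gja5 and Gja1 were at 0.38 (adjusted p = 0.0963), 0.36 (0.154) and 0.02 (0.935).

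Desmosomal genes were among the leading changes of acute_noisy lungs. Dsg2 had 392, 379, 351 and 225 normalised counts in acute_noisy lungs, against 114.24, 75.4 and 88.0 in control_blank lungs, clear of overlap and higher by 1.84 ± 0.26 (adjusted p = 6.22e-06). Dsp, which ties desmosomes to intermediate filaments, had 4219, 4149.99, 3192 and 2311 in acute_noisy lungs, against 1888, 1118 and 1446.53 in control_blank lungs. All 4 were above the control_blank range, a change of 1.22 ± 0.24 (adjusted p = 0.000215). Pkp2, a plakophilin known best from heart, had 226, 256, 266 and 233 in acute_noisy lungs, against 462, 460.3 and 419 in control_blank lungs, and changed by -0.86 ± 0.15 (adjusted p = 5.17e-05) without overlap. Cardiac muscle markers, beside Pkp2, summed to 267 to 8601 in acute_noisy lungs, against 9731 to 16369 in control_blank lungs, with 7 of 7 lower, and their part was not tested. Pkp2 also fell in healthy_noisy and healthy_VCV over control_blank lungs, with 7 and 3 of 7 markers lower. In control_chronic over control_blank lungs 6 of 7 were lower and Pkp2 was not called. In chronic_noisy over control_chronic lungs Pkp2 fell, while 2 of 7 markers were higher and 0 lower. In acute_VCV over healthy_VCV lungs Pkp2 rose, with 0 of 7 markers called. Jup changed by -0.52 ± 0.15 (adjusted p = 0.00453) and lost its call without control_blank_021 (adjusted p = 0.0582). Cdh3 rose by 0.80 ± 0.21, and Tjp1 (a scaffold that binds claudins and actin) by 0.60 ± 0.20, a call lost without control_blank_016 (adjusted p = 0.196) and under quantile normalization (adjusted p = 0.0621).

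The claudins that fell in acute_noisy lungs were Cldn10 at -2.05 ± 0.36 (adjusted p = 5.24e-05), Cldn11 at -1.93 ± 0.41 (adjusted p = 0.000367), Cldn8 at -1.86 ± 0.51 (adjusted p = 0.00341), Cldn19 (a claudin of Schwann cell myelin and kidney) at -1.25 ± 0.50 (adjusted p = 0.0344) and Cldn1 at -0.93 ± 0.35 (adjusted p = 0.0245), all on the log2 scale. The call of Cldn19 was lost without any of control_blank_016, control_blank_021, acute_noisy_050 or acute_noisy_046 (adjusted p = 0.0533 to 0.154), and that of Cldn1 without any of control_blank_074 (adjusted p = 0.129), control_blank_016 (0.199) or acute_noisy_050 (0.0883). Schwann markers, beside Cldn11 and Cldn19, summed to 72.2 to 133 in acute_noisy lungs, against 249 to 371 in control_blank lungs, with 2 of 2 tested markers lower, and their part was not tested. Cldn8 stood at 3.31, 3.37, 20.8 and 12.2 normalised counts in acute_noisy lungs, against 33.5, 31.6 and 26.0 in control_blank lungs, and the 2 lowest libraries were those of series 14. Cdh29 had 267, 431, 680.1 and 1090.3 in acute_noisy lungs and were below control_blank, a change of -2.35 ± 0.38 (adjusted p = 2.07e-05) in log2 terms, and Tjp3 changed by -1.54 ± 0.28 (adjusted p = 7.35e-05). Ciliated markers beside them summed to 799 to 2008 in acute_noisy lungs, against 5154 to 10934 in control_blank lungs, with 5 of 5 lower, and their part was not tested. Gja4 had 2028, 1029.9, 673 and 1224 in acute_noisy lungs, against 2780.03, 2772 and 2519 in control_blank lungs. It fell by 1.23 ± 0.27 (adjusted p = 0.00042) on the log2 scale without overlap, beside endothelial markers of which 2 of 6 were higher and 2 lower. Cldn2, which forms a pore for cations and water, was called higher by 2.60 ± 0.87 (adjusted p = 0.0133), with 27.3, 10.97, 66.8 and 13.4 in acute_noisy lungs and 1.60, 6.48 and 2.21 in control_blank lungs, and was lost without either control_blank_074 (adjusted p = 0.0517) or acute_noisy_046 (0.0504). Cldn2 reached the minimum mean for the set only through ventilated libraries, so its rise is a description. Ocln and Cdh2 were not called, at -0.22 ± 0.14 and 0.14 ± 0.27.

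To set injured against uninjured lungs that were both ventilated, acute_VCV was compared with healthy_VCV and acute_noisy with healthy_noisy. Under constant volumes 14 genes rose and 8 fell, 57.9% of the set, while of all genes 26.1% rose and 26.4% fell, 52.5% in all. Under variable volumes 11 rose and 6 fell, 44.7% of the set, while of all genes 12.9% rose and 13.9% fell, 26.7% in all. The acute_VCV libraries share no number series with healthy_VCV. Of the acute_noisy libraries, 2 share series 15 with healthy_noisy.

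Cldn4, Cldn6 and Cldn7 led the rise under constant volumes. Cldn4 had 4165, 2965 and 3559 normalised counts in acute_VCV lungs, against 257, 287, 276 and 218 in healthy_VCV lungs, 13.6-fold higher, which is 3.77 ± 0.34 (adjusted p = 2.43e-08) on the log2 scale. Cldn6 had 253, 136 and 175 in acute_VCV lungs, against 20.7, 17.9, 27.2 and 36.3 in healthy_VCV lungs, and rose by 2.83 ± 0.33 (adjusted p = 3.92e-07). Cldn7 had 2489, 1759 and 2313 in acute_VCV lungs, against 655, 589.98, 541 and 511 in healthy_VCV lungs, and rose by 1.92 ± 0.21 (adjusted p = 1.66e-07). None of the 3 overlapped between the groups. Under variable volumes Cldn4 had 2188, 1471, 1285 and 1144 in acute_noisy lungs, against 253, 402 and 483 in healthy_noisy lungs, and rose by 2.01 ± 0.34 (adjusted p = 0.000579). Cldn7 rose by 0.80 ± 0.21 (adjusted p = 0.00902), a call lost without healthy_noisy_029 (adjusted p = 0.0609), and Cldn6 by 0.99 ± 0.33 (adjusted p = 0.0298), a call lost without any of acute_noisy_047, acute_noisy_050, healthy_noisy_029, healthy_noisy_061 or healthy_noisy_078 (adjusted p = 0.0535 to 0.104). Basal markers were higher beside them under constant volumes, at 590.5 to 658 in acute_VCV lungs and 106 to 251 in healthy_VCV lungs, with 3 of 3 tested markers called, and their part was not tested. Under variable volumes 1 of 3 basal markers was higher.

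The bases before the starts of Cldn6 and Cldn7 are printed because these claudins were called together in 10 of the 16 comparisons, and those of Gja1 because it is the connexin with a TGANTCA match. They are the 250 bases ahead of each gene's start in RefSeq, build GRCr8, read on the plus strand from chr10:13215558-13215807, chr10:55188420-55188669 and chr20:36302314-36302563. Capitals mark matches on either strand to CAGGTG, letters that the repressors Snai and Zeb are known to bind, or to TGANTCA, the letters of AP-1.
Cldn6: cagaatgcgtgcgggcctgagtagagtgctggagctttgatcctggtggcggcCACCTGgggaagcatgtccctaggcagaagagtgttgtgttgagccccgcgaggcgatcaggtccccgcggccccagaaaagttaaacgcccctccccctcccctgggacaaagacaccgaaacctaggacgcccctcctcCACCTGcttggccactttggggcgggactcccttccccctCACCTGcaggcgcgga
Cldn7: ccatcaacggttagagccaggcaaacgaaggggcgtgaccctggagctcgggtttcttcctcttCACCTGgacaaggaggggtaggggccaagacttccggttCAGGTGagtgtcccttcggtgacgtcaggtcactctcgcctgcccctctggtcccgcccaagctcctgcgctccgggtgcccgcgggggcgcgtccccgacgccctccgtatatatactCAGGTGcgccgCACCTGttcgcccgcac
Gja1: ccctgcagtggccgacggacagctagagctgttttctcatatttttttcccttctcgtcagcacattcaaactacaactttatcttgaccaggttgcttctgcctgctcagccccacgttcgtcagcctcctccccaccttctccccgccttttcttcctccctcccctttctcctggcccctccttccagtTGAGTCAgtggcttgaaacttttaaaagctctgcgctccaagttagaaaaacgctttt
Windows for 22 of the 38 genes were in the table. CAGGTG was found in 8 of the 22 (Cldn6, Cldn7, Dsg2, Dsp, Gjb2, Jup, Ocln and Tjp3) and in 15.9% of 33469 windows of the same length, and it occurred 3 times in Cldn6 and 4 times in Cldn7. Repeats were not counted over all windows, so they cannot be read as particular to these genes. TGANTCA was found in Cldn15 and Gja1, 2 of the 22, and in 6.34% of all windows. The NF-kappaB motif and AACCGGTT (grainyhead factors) were in 0 of the 22, and in 1.3% and 0.146% of all windows. The motifs do not overlap each other in the printed windows, and a match of letters is not a site.

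Cldn1 ran the other way. It had 66.1, 77.2 and 48.4 normalised counts in acute_VCV lungs, against 301, 389.9, 349 and 417 in healthy_VCV lungs, a change of -2.51 ± 0.35 (adjusted p = 3.38e-06). Under variable volumes it had 71.2, 47.2, 95.6 and 78.2 in acute_noisy lungs, against 269, 368 and 355 in healthy_noisy lungs, a change of -2.19 ± 0.35 (adjusted p = 0.000362). The injured lungs were below every uninjured ventilated lung in both modes. Cldn8 changed by -1.99 ± 0.51 (adjusted p = 0.00235) under constant volumes and by -1.81 ± 0.51 (adjusted p = 0.0137) under variable volumes, the second call being lost without any of acute_noisy_047 (adjusted p = 0.069), acute_noisy_050 (0.0645) or healthy_noisy_061 (0.0622). Cldn10 changed by -1.09 ± 0.36 (adjusted p = 0.0133) and -1.78 ± 0.36 (adjusted p = 0.0018) in the same order. Cldn15, another pore-forming claudin, changed by -1.20 ± 0.38 (adjusted p = 0.0242) under variable volumes and lost its call without any of acute_noisy_047, acute_noisy_050, healthy_noisy_029 or healthy_noisy_061 (adjusted p = 0.0534 to 0.109). Cdh29 and Tjp3 changed by -1.33 ± 0.38 (adjusted p = 0.0136) and -0.80 ± 0.28 (adjusted p = 0.0366) under variable volumes, beside 4 of 5 ciliated markers that were lower. The call of Cdh29 was lost without any of acute_noisy_047, acute_noisy_050, healthy_noisy_061 or healthy_noisy_078 (adjusted p = 0.0515 to 0.0738), and that of Tjp3 without any of acute_noisy_047, acute_noisy_050, healthy_noisy_061 or healthy_noisy_078 (adjusted p = 0.0635 to 0.182).

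Cdh1 was higher in the injured lungs in both modes, by 0.99 ± 0.17 (adjusted p = 3.5e-05) in acute_VCV over healthy_VCV lungs (5933, 6698, 6376 and 6375 normalised counts in healthy_VCV) and by 0.74 ± 0.17 (adjusted p = 0.00358) in acute_noisy over healthy_noisy lungs (5429.97, 5282 and 7142 in healthy_noisy). Cdh2 had 164, 238, 112.76 and 119.8 in acute_noisy lungs, against 74.5, 60.3 and 91.0 in healthy_noisy lungs, and rose by 1.02 ± 0.27 (adjusted p = 0.009), a call lost without healthy_noisy_061 (adjusted p = 0.061). Under constant volumes Cdh2 was at 0.29 ± 0.27 and not called. Cardiac muscle markers, beside Cdh2, were at 267 to 8601 in acute_noisy lungs and 341 to 1427 in healthy_noisy lungs, with 0 of 7 called, and their part was not tested. Cdh11, a cadherin of mesenchymal cells, had 126, 151 and 143 in acute_VCV lungs, against 608, 359.8, 664 and 382 in healthy_VCV lungs. It was lower throughout, a change of -1.79 ± 0.44 (adjusted p = 0.00158) on the log2 scale, beside 3 of 5 fibroblast markers that were lower, whose part was not tested. Cdh13 (T-cadherin, an adhesion protein without a cell-internal tail) rose by 0.51 ± 0.19 (adjusted p = 0.0451) under variable volumes and lost its call without any of acute_noisy_047, acute_noisy_050, acute_noisy_046, healthy_noisy_061 or healthy_noisy_078 (adjusted p = 0.0599 to 0.234).

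Of the 7 connexins 6 rose and 0 fell under constant volumes, and 5 rose and 0 fell under variable volumes. Of all genes 26.1% and 12.9% rose in the same order. Both connexin counts include Gjb5, whose rise the filter had already selected for. Gja1 rose by 1.26 ± 0.21 (adjusted p = 2.68e-05) in acute_VCV over healthy_VCV lungs, with 1588, 1484, 1416 and 1336 normalised counts in healthy_VCV, and by 0.91 ± 0.21 (adjusted p = 0.00399) in acute_noisy over healthy_noisy lungs, where the groups overlapped. Gja5 rose by 1.22 ± 0.20 (adjusted p = 1.93e-05) under constant and by 0.99 ± 0.20 (adjusted p = 0.00155) under variable volumes. Gjb5 rose by 2.44 ± 0.49 (adjusted p = 0.00023) under constant and by 2.33 ± 0.49 (adjusted p = 0.00231) under variable volumes. Gjb2, a connexin of ear, skin and liver, had 124, 129 and 144 in acute_VCV lungs, against 52.2, 32.9, 63.1 and 66.3 in healthy_VCV lungs, and rose by 1.34 ± 0.36 (adjusted p = 0.0032). Under variable volumes Gjb2 rose by 1.06 ± 0.36 (adjusted p = 0.0315) with overlapping groups and lost its call without any of acute_noisy_047, acute_noisy_050, healthy_noisy_029, acute_noisy_046 or healthy_noisy_078 (adjusted p = 0.0615 to 0.148). Gja4 rose by 0.67 ± 0.27 (adjusted p = 0.0383) under constant volumes, beside endothelial markers of which 1 of 6 was higher and 4 lower, a call lost without any of acute_VCV_040, acute_VCV_045, acute_VCV_049, healthy_VCV_025, healthy_VCV_060 or healthy_VCV_062 (adjusted p = 0.05 to 0.132).

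Of the 7 desmosomal genes 2 rose and 3 fell under constant volumes. Pkp3 had 902, 677 and 839 normalised counts in acute_VCV lungs, against 325, 335, 413 and 302 in healthy_VCV lungs, and rose by 1.23 ± 0.16 (adjusted p = 2.21e-06). Pkp2 rose by 0.62 ± 0.15 (adjusted p = 0.00139). Dsg2, Dsp and Tjp1 changed by -0.75 ± 0.26 (adjusted p = 0.0202), -0.74 ± 0.24 (adjusted p = 0.014) and -0.67 ± 0.20 (adjusted p = 0.00664). The call of Dsg2 was lost without either acute_VCV_040 (adjusted p = 0.0732) or acute_VCV_045 (0.0925) and that of Dsp without either acute_VCV_040 (adjusted p = 0.099) or acute_VCV_045 (0.0581). Cldn19 and Cldn23 rose by 1.27 ± 0.50 (adjusted p = 0.0362) and 1.22 ± 0.34 (adjusted p = 0.00398), the first call being lost without any of acute_VCV_040, acute_VCV_045, healthy_VCV_025, healthy_VCV_060 or healthy_VCV_062 (adjusted p = 0.0517 to 0.121). Dsg1b fell by 1.37 ± 0.48 in log2 terms, lost without acute_VCV_040 (adjusted p = 0.153). Under variable volumes none of the 7 desmosomal genes was called. Ocln and Jup were not called in either mode, at 0.12 ± 0.14 and -0.21 ± 0.15 under constant and -0.16 ± 0.14 and -0.11 ± 0.15 under variable volumes.

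Of the calls in acute_noisy over healthy_noisy lungs, 6 held with the number series as a covariate (Cdh1, Cldn1, Cldn4, Cldn10, Gja5 and Gjb5). With the acute_noisy libraries of series 15 alone, set against healthy_noisy of the same series, 2 held: Cldn4 at 1.72 (adjusted p = 0.0395) and Cldn1 at -1.91 (adjusted p = 0.026). A fit of only the libraries compared called 0 of the 38, with 19 at an unadjusted p under 0.05, where edgeR on the recovered reads of all libraries called 18.

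Ventilation of uninjured lungs was read from healthy_VCV and healthy_noisy against control_blank, which both comparisons share. Under constant volumes 6 genes rose and 10 fell, 42.1% of the set, while of all genes 29.3% rose and 28.1% fell, 57.4% in all. Under variable volumes 6 rose and 8 fell, 36.8% of the set, while of all genes 17.5% rose and 14.6% fell, 32.1% in all. Dsg1b, Dsg2, Dsp, Cdh3 and Cldn1 were among the genes that rose, and Cldn6, Cldn7, Cldn19, Gja4 and both plakophilins were among those that fell.

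Dsg1b, a desmoglein of stratified epithelium, had 34.0, 31.4 and 76.7 normalised counts in healthy_noisy lungs and 60.5, 51.7, 77.1 and 63.2 in healthy_VCV lungs, against 1.60, 0 and 2.21 in control_blank lungs. The control_blank values rest on 0 to 4 reads per library, so the change depends on the pseudocount. It was 4.45 ± 0.51 (adjusted p = 9.64e-06) in healthy_noisy and 4.97 ± 0.48 (adjusted p = 2.75e-07) in healthy_VCV lungs with a pseudocount of 1. With a pseudocount of 10 it was 2.27 (adjusted p = 0.000129) in healthy_noisy lungs and 2.69 (adjusted p = 1.74e-06) in healthy_VCV lungs. In acutely injured lungs, against the same control_blank lungs, it was 4.68 ± 0.48 (adjusted p = 2.33e-07) in acute_noisy, with 33.1, 65.0, 53.2 and 58.7 normalised counts, and 3.60 ± 0.51 (adjusted p = 1.84e-05) in acute_VCV, with 12.2, 41.5 and 25.5. Every ventilated uninjured or acutely injured library was above every control_blank library. Dsg1b reached the minimum mean for the set only through ventilated libraries, so its rise is a description. Neutrophil markers moved with ventilation too, and all 4 were higher in each of these ventilated groups than in control_blank. They summed to 20522 to 82508 in acute_noisy, 28334 to 106881 in acute_VCV, 23439 to 30349.6 in healthy_noisy and 17990.01 to 29621 in healthy_VCV lungs, against 2627 to 3015 in control_blank lungs. Cldn1 did not follow these markers throughout, being called lower in both acutely injured groups than in control_blank. The part of the neutrophil markers in the changes of Dsg1b and Cldn1 was not tested.

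Dsg2 had 214, 182 and 233 normalised counts in healthy_noisy lungs and 328, 327, 313 and 359 in healthy_VCV lungs, against 114.24, 75.4 and 88.0 in control_blank lungs. The groups were apart, with changes of 1.19 ± 0.28 (adjusted p = 0.00325) in healthy_noisy and 1.85 ± 0.26 (adjusted p = 6.43e-06) in healthy_VCV lungs. Dsp rose by 0.85 ± 0.26 (adjusted p = 0.0169) in healthy_noisy lungs, a call lost without any of control_blank_016 (adjusted p = 0.111), healthy_noisy_029 (0.0527) or healthy_noisy_078 (0.0885), and by 1.36 ± 0.24 (adjusted p = 7.26e-05) in healthy_VCV lungs. Cdh3 rose by 0.96 ± 0.22 (adjusted p = 0.00274) in healthy_noisy and 0.91 ± 0.21 (adjusted p = 0.000773) in healthy_VCV lungs. Cldn1 had 269, 368 and 355 in healthy_noisy lungs and 301, 389.9, 349 and 417 in healthy_VCV lungs, against 191, 221 and 59.2 in control_blank lungs. All were above control_blank, by 1.26 ± 0.37 (adjusted p = 0.0128) in healthy_noisy, lost without control_blank_021 (adjusted p = 0.127), and by 1.40 ± 0.35 (adjusted p = 0.00153) in healthy_VCV lungs. Tjp1 rose by 0.78 ± 0.20 (adjusted p = 0.00202) in healthy_VCV lungs and was at 0.09 ± 0.21 in healthy_noisy lungs. Cldn2 was called in healthy_noisy lungs at 3.24 ± 0.93 (adjusted p = 0.0113), with 32.7, 16.9 and 85.9 in healthy_noisy and 1.60, 6.48 and 2.21 in control_blank lungs, and was lost without healthy_noisy_078 (adjusted p = 0.063). This rise too is a description, because Cldn2 passed the minimum mean only through ventilated libraries.

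Among the claudins that fell, Cldn7 had 549, 710.3 and 805 normalised counts in healthy_noisy lungs and 655, 589.98, 541 and 511 in healthy_VCV lungs, against 901, 1909 and 1195 in control_blank lungs. Both groups lay below control_blank, a change of -0.90 ± 0.22 (adjusted p = 0.0042) in healthy_noisy and -1.15 ± 0.21 (adjusted p = 7.62e-05) in healthy_VCV lungs. Cldn6 changed by -1.15 ± 0.35 (adjusted p = 0.0164) in healthy_noisy lungs, lost without either control_blank_016 (adjusted p = 0.128) or healthy_noisy_029 (0.0681), and by -1.70 ± 0.33 (adjusted p = 0.000159) in healthy_VCV lungs. Basal markers, beside Cldn6 and Cldn7, summed to 122 to 286 in healthy_noisy and 106 to 251 in healthy_VCV lungs, against 321 to 558 in control_blank lungs. In each mode 2 of 3 tested markers were lower, and their part was not tested. Cldn19 changed by -1.92 ± 0.54 (adjusted p = 0.0094) in healthy_noisy lungs, lost without either control_blank_016 (adjusted p = 0.0573) or healthy_noisy_078 (0.0765), and by -1.83 ± 0.50 (adjusted p = 0.00343) in healthy_VCV lungs. In healthy_VCV lungs Cldn11 changed by -1.28 ± 0.41 (adjusted p = 0.0104), lost without control_blank_021 (adjusted p = 0.085), and Cldn23 by -0.98 ± 0.34 (adjusted p = 0.0159), lost without control_blank_016 (adjusted p = 0.143). Schwann markers, beside Cldn11 and Cldn19, summed to 129 to 159 in healthy_noisy and 75.8 to 153 in healthy_VCV lungs, against 249 to 371 in control_blank lungs. Their part was not tested.

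Cdh29 and Tjp3 changed by -1.30 ± 0.38 (adjusted p = 0.00522) and -1.28 ± 0.28 (adjusted p = 0.000504) in healthy_VCV lungs, the first lost without control_blank_016 (adjusted p = 0.0684), beside 4 of 5 ciliated markers that were lower, and the part of the markers was not tested. In healthy_noisy over control_blank lungs 4 of 5 ciliated markers were lower as well, while neither Cdh29 nor Tjp3 was called. Gja4 had 1556, 1056 and 1133 normalised counts in healthy_noisy lungs and 1095, 1273, 1033 and 1148 in healthy_VCV lungs, against 2780.03, 2772 and 2519 in control_blank lungs. Every ventilated value was below every control_blank value, a change of -1.13 ± 0.28 (adjusted p = 0.00486) in healthy_noisy and -1.24 ± 0.27 (adjusted p = 0.000393) in healthy_VCV lungs. Endothelial markers summed to 33654 to 41788 in healthy_noisy and 50802 to 56289 in healthy_VCV lungs, against 31370.5 to 44293 in control_blank lungs. Pkp2 changed by -0.65 ± 0.16 (adjusted p = 0.00456) in healthy_noisy and -0.81 ± 0.15 (adjusted p = 0.000103) in healthy_VCV lungs, and Pkp3 by -0.46 ± 0.18 (adjusted p = 0.049) in healthy_noisy and -0.63 ± 0.16 (adjusted p = 0.00227) in healthy_VCV lungs. The call of Pkp3 in healthy_noisy lungs was lost without any of control_blank_016, control_blank_021, healthy_noisy_029, healthy_noisy_061 or healthy_noisy_078 (adjusted p = 0.0734 to 0.338). Cdh2 and Cdh13 changed by -0.88 ± 0.28 (adjusted p = 0.0219) and -0.53 ± 0.20 (adjusted p = 0.044) in healthy_noisy lungs. Cdh2 was lost without any of control_blank_016, control_blank_021, healthy_noisy_029 or healthy_noisy_061 (adjusted p = 0.0538 to 0.0827) and Cdh13 without any of control_blank_074, control_blank_016, control_blank_021 or healthy_noisy_078 (adjusted p = 0.0548 to 0.243). Cardiac muscle markers, beside Cdh2, summed to 341 to 1427 in healthy_noisy lungs, against 9731 to 16369 in control_blank lungs, with 7 of 7 lower. Smooth muscle markers, beside Cdh13, summed to 8166 to 10863 in healthy_noisy lungs, against 19129.5 to 30129.7 in control_blank lungs, with 3 of 3 lower. They were also 3 of 3 lower in healthy_VCV and in acute_noisy over control_blank lungs, where Cdh13 was not called. Cdh13 averaged 390 in healthy_VCV and 336 in acute_noisy lungs, against 342 in control_blank lungs. The part of both lists was not tested. Not called in either mode were Cldn4, Ocln, Cdh1, Gja1, Gja5 and Jup, whose changes lay between -0.71 and -0.01 on the log2 scale.

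**Figure D2:**
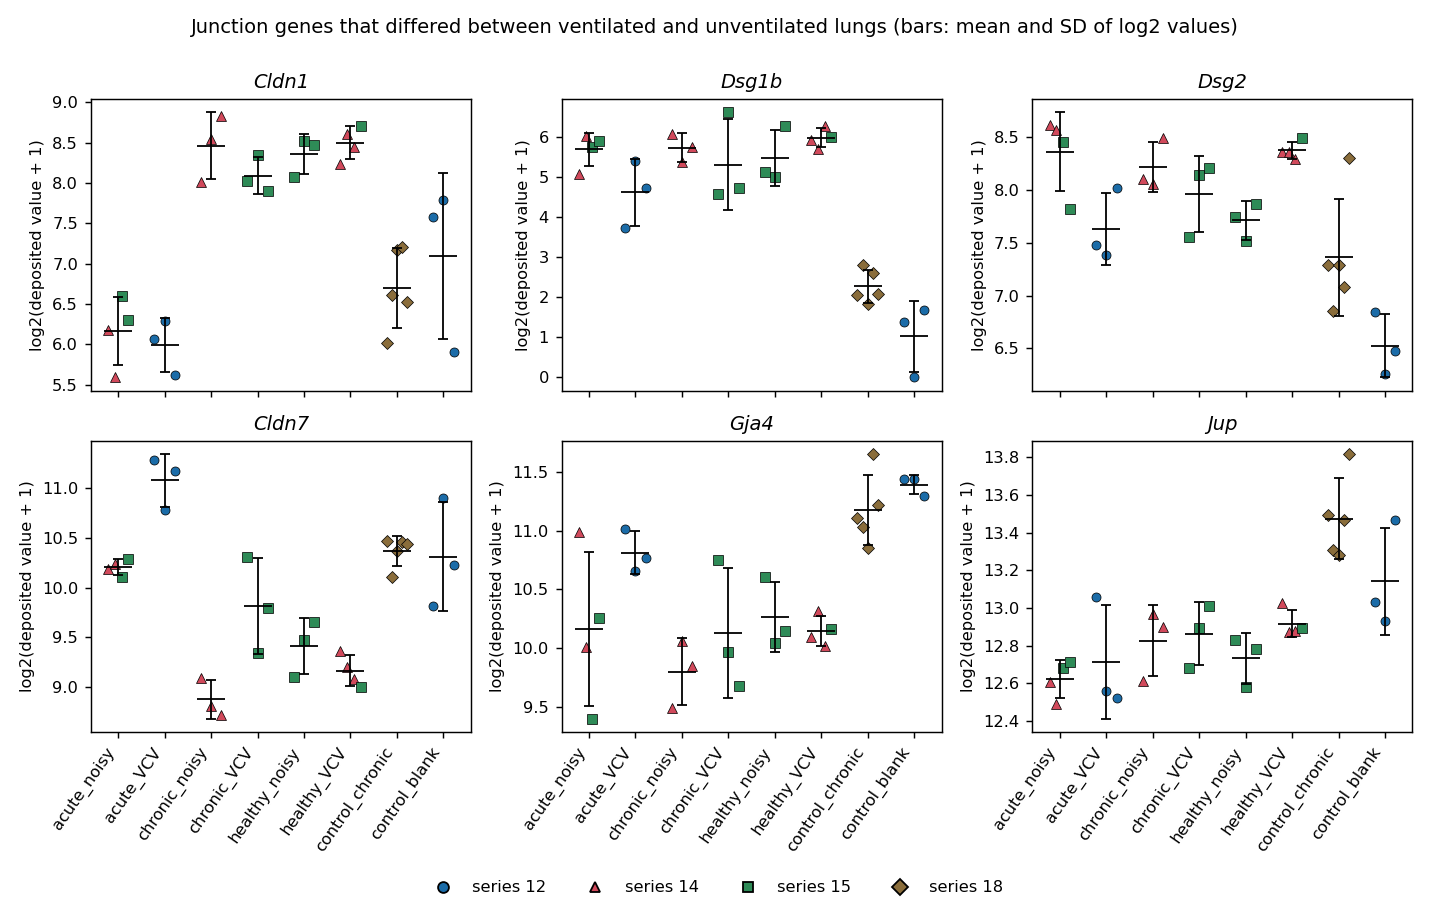
Points are libraries in the 8 groups, from acute_noisy on the left to control_blank on the right, with log2(normalised count + 1) on the vertical axis and the mean and SD as bars. Marker shapes give the number series. All ventilated libraries lie above all unventilated ones for Dsg1b, while Cldn1 is high in the ventilated groups without acute injury and low in both acutely injured groups.

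Unventilated lungs with chronic injury (control_chronic) were set against control_blank. Of the 38 genes 3 rose and 2 fell, 13.2% of them, while of all genes 9.3% rose and 5.55% fell, 14.9% in all. Cdh13 had 139.8, 155, 247, 177 and 156 normalised counts in control_chronic lungs, against 352, 363 and 309 in control_blank lungs. It was lower without overlap, a change of -0.99 ± 0.18 (adjusted p = 0.00292) on the log2 scale. Smooth muscle markers, beside Cdh13, summed to 6879 to 9907 in control_chronic lungs, against 19129.5 to 30129.7 in control_blank lungs, with 3 of 3 lower, and their part was not tested. Dsg2, Dsp and Tjp1 rose by 0.84 ± 0.25 (adjusted p = 0.0296), 0.87 ± 0.23 (adjusted p = 0.0191) and 0.59 ± 0.19 (adjusted p = 0.0381), and Cdh2 changed by -0.79 ± 0.26 (adjusted p = 0.0399). The call of Dsg2 was lost without any of control_blank_016 (adjusted p = 0.236), control_blank_021 (0.0813) or control_chronic_117 (0.0733), that of Dsp without any of control_blank_016 (adjusted p = 0.207), control_blank_021 (0.0524) or control_chronic_117 (0.052), that of Tjp1 without any of control_blank_016, control_blank_021, control_chronic_113, control_chronic_114, control_chronic_115 or control_chronic_117 (adjusted p = 0.0534 to 0.453) and that of Cdh2 without any of control_blank_016, control_blank_021, control_chronic_113, control_chronic_115 or control_chronic_116 (adjusted p = 0.0638 to 0.179). Cardiac muscle markers, beside Cdh2, summed to 947 to 1336 in control_chronic lungs, against 9731 to 16369 in control_blank lungs, with 6 of 7 lower, and their part was not tested. Cldn4, Ocln, Cdh1, Gja1, Gja5 and Jup were not called, at 0.24 ± 0.33, 0.09 ± 0.13, 0.02 ± 0.16, -0.20 ± 0.20, 0.08 ± 0.19 and 0.33 ± 0.14.

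Ventilation of chronically injured lungs was read from chronic_noisy and chronic_VCV against control_chronic, which both share. Under variable volumes 5 genes rose and 12 fell, 44.7% of the set, while of all genes 19.1% rose and 18.1% fell, 37.2% in all. Under constant volumes 3 rose and 4 fell, 18.4% of the set, while of all genes 6.89% rose and 7.9% fell, 14.8% in all.

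Cldn1 had 257, 373 and 453 normalised counts in chronic_noisy lungs and 260.2, 326 and 237 in chronic_VCV lungs, against 63.5, 97.2, 143, 146 and 91.0 in control_chronic lungs. Both ventilated groups were above control_chronic, by 1.76 ± 0.33 (adjusted p = 0.000561) in chronic_noisy and 1.39 ± 0.33 (adjusted p = 0.00732) in chronic_VCV lungs. Dsg1b had 66.8, 40.4 and 53.3 in chronic_noisy and 23.0, 97.4 and 25.5 in chronic_VCV lungs, against 3.18, 5.95, 2.55, 5.05 and 3.21 in control_chronic lungs, where it rests on 1 to 3 reads per library. The groups were far apart, by 3.47 ± 0.46 (adjusted p = 2.21e-05) in chronic_noisy and 3.04 ± 0.46 (adjusted p = 0.000244) in chronic_VCV lungs, and with a pseudocount of 10 by 2.17 (adjusted p = 7.02e-05) in chronic_noisy and 1.85 (adjusted p = 0.000645) in chronic_VCV lungs. Neutrophil markers, beside Cldn1 and Dsg1b, summed to 15729 to 28725 in chronic_noisy and 8825 to 24377 in chronic_VCV lungs, against 833 to 2286 in control_chronic lungs, with 4 of 4 higher in each, and their part was not tested. Cdh13 rose by 0.77 ± 0.18 (adjusted p = 0.00248) in chronic_noisy lungs and by 0.69 ± 0.18 (adjusted p = 0.0116) in chronic_VCV lungs, the second call being lost without chronic_VCV_073 (adjusted p = 0.0747). Of the smooth muscle markers 0 of 3 were called in each. Dsg2 rose by 0.85 ± 0.25 (adjusted p = 0.011) in chronic_noisy lungs with overlapping groups, lost without chronic_noisy_084 (adjusted p = 0.0788).

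Gja4 had 718, 1066 and 922 normalised counts in chronic_noisy lungs and 1717, 999 and 815 in chronic_VCV lungs, against 2212, 2096, 1848, 3217 and 2382 in control_chronic lungs. Both groups lay below it, a change of -1.37 ± 0.25 (adjusted p = 0.000464) in chronic_noisy and, lost without chronic_VCV_073 (adjusted p = 0.0665), -1.04 ± 0.25 (adjusted p = 0.00797) in chronic_VCV lungs. Jup had 6259, 8004 and 7648 in chronic_noisy and 6576, 7616 and 8267 in chronic_VCV lungs, against 11553, 10159, 9944, 11334 and 14440.4 in control_chronic lungs. It too was lower without overlap, a change of -0.65 ± 0.14 (adjusted p = 0.0016) in chronic_noisy and -0.61 ± 0.14 (adjusted p = 0.00609) in chronic_VCV lungs. Cdh29 changed by -1.18 ± 0.36 (adjusted p = 0.0136) in chronic_noisy and -1.18 ± 0.36 (adjusted p = 0.0289) in chronic_VCV lungs, lost without chronic_noisy_084 (adjusted p = 0.0589) in chronic_noisy and without any of chronic_VCV_069 (adjusted p = 0.13), chronic_VCV_073 (0.121) or control_chronic_115 (0.0633) in chronic_VCV lungs. Ciliated markers beside it summed to 1943 to 2885 in chronic_noisy and 1722 to 3103 in chronic_VCV lungs, against 4239 to 6734 in control_chronic lungs, with 4 of 5 lower in each, and their part was not tested. Tjp3 was not called in chronic_VCV over control_chronic lungs. Gjb2 changed by -1.13 ± 0.34 (adjusted p = 0.0288) in chronic_VCV lungs, lost without any of chronic_VCV_069, chronic_VCV_073, control_chronic_115, control_chronic_116 or control_chronic_117 (adjusted p = 0.0524 to 0.128).

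Of the 12 claudins 5 fell and 1, Cldn1, rose under variable volumes. Cldn7 had 546, 447 and 422 normalised counts in chronic_noisy lungs, against 1420.3, 1100.4, 1319, 1411 and 1385 in control_chronic lungs, clearly lower, a change of -1.49 ± 0.20 (adjusted p = 2.41e-05). Cldn6 had 28.9, 27.8 and 16.7 in chronic_noisy lungs, against 50.8, 151, 73.9, 106 and 87.8 in control_chronic lungs, and changed by -1.84 ± 0.32 (adjusted p = 0.000273). Cldn23, a claudin of lining epithelium, had 48.8, 35.9 and 26.2 in chronic_noisy lungs, against 149, 77.3, 150.3, 149.7 and 135 in control_chronic lungs, and changed by -1.81 ± 0.32 (adjusted p = 0.000349). For all 3 the groups did not overlap. Cldn4 had 259, 231 and 148 in chronic_noisy lungs, against 597, 400.5, 582, 471 and 475 in control_chronic lungs. Its values lay below control_chronic, a change of -1.27 ± 0.33 (adjusted p = 0.00496), a call lost without chronic_noisy_084 (adjusted p = 0.0517). Tjp3 changed by -1.17 ± 0.27 (adjusted p = 0.0022), and Cldn15 by -1.10 ± 0.36 (adjusted p = 0.022), lost without any of chronic_noisy_075, chronic_noisy_079, chronic_noisy_084 or control_chronic_117 (adjusted p = 0.0512 to 0.072). Basal markers, beside the claudins that fell, summed to 119 to 193 in chronic_noisy lungs, against 242 to 567 in control_chronic lungs, with 2 of 3 tested markers lower, and their part was not tested. In chronic_VCV over control_chronic lungs 2 of 3 basal markers were also lower, while 0 of 12 claudins fell.

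Pkp2 and Pkp3 changed by -0.50 ± 0.14 (adjusted p = 0.0104) and -0.45 ± 0.16 (adjusted p = 0.0291) in chronic_noisy lungs, the first lost without chronic_noisy_084 (adjusted p = 0.0821) and the second without any of chronic_noisy_075, chronic_noisy_084, control_chronic_113 or control_chronic_117 (adjusted p = 0.0611 to 0.114). Cdh15 (M-cadherin of skeletal muscle) changed by -1.46 ± 0.52 (adjusted p = 0.0295) with overlapping groups, lost without any of chronic_noisy_075 (adjusted p = 0.139), chronic_noisy_079 (0.0796) or control_chronic_113 (0.0798). Dsg3, a desmoglein of basal keratinocytes, had 258, 4.49 and 5.57 normalised counts in chronic_noisy lungs and 0 reads in each of the 5 control_chronic libraries, so no fold is given. Its call (adjusted p = 0.0331) was lost without either chronic_noisy_075 (adjusted p = 0.244) or control_chronic_116 (0.0524) and under quantile normalization (adjusted p = 0.0901). Single libraries also held most Dsg3 elsewhere, with 127 in acute_noisy_046 and at most 0.84 in the other acute_noisy libraries. Tjp1, Ocln, Cdh1, Cdh2, Gja1, Gja5 and Dsp were called in neither mode, with changes between -0.36 and 0.44.

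Between chronically injured and uninjured lungs that were both ventilated, 1 gene was called in each mode. In chronic_VCV over healthy_VCV lungs 1 gene rose, 2.63% of the set, while of all genes 1.64% rose and 0.818% fell, 2.46% in all. It was Cldn6, with 67.3, 53.8 and 59.9 normalised counts in chronic_VCV lungs and 20.7, 17.9, 27.2 and 36.3 in healthy_VCV lungs, higher without overlap by 1.25 ± 0.33 (adjusted p = 0.0461). In chronic_noisy over healthy_noisy lungs 1 gene fell, 2.63% of the set, while of all genes 2.27% rose and 2.42% fell, 4.69% in all. It was Cldn23, with 48.8, 35.9 and 26.2 in chronic_noisy lungs and 54.9, 104 and 128 in healthy_noisy lungs, lower without overlap, a change of -1.30 ± 0.36 (adjusted p = 0.0411). Neither call held with the number series as a covariate, which called 0 of 38 in both comparisons by limma, with 7 genes at an unadjusted p under 0.05 in the first and 6 in the second, while edgeR without the covariate called 0 and 2. The first was lost without any of healthy_VCV_025, healthy_VCV_057, healthy_VCV_060, chronic_VCV_067 or chronic_VCV_073 (adjusted p = 0.0816 to 0.202), and the second without any of chronic_noisy_079, chronic_noisy_084, healthy_noisy_029, healthy_noisy_061 or healthy_noisy_078 (adjusted p = 0.0818 to 0.203). For Cldn4, Cdh1, Gja1 and Gja5 the change was 0.74 ± 0.34, 0.07 ± 0.17, 0.08 ± 0.21 and 0.30 ± 0.20 in chronic_VCV over healthy_VCV lungs. It was -0.82 ± 0.37, 0.00 ± 0.18, -0.13 ± 0.22 and 0.02 ± 0.21 in chronic_noisy over healthy_noisy lungs. Ocln, Tjp1, Cdh2, Dsp and Jup were not called either, at -0.43 to 0.00 in chronic_VCV over healthy_VCV and -0.01 to 0.70 in chronic_noisy over healthy_noisy lungs.

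**Figure D3:**
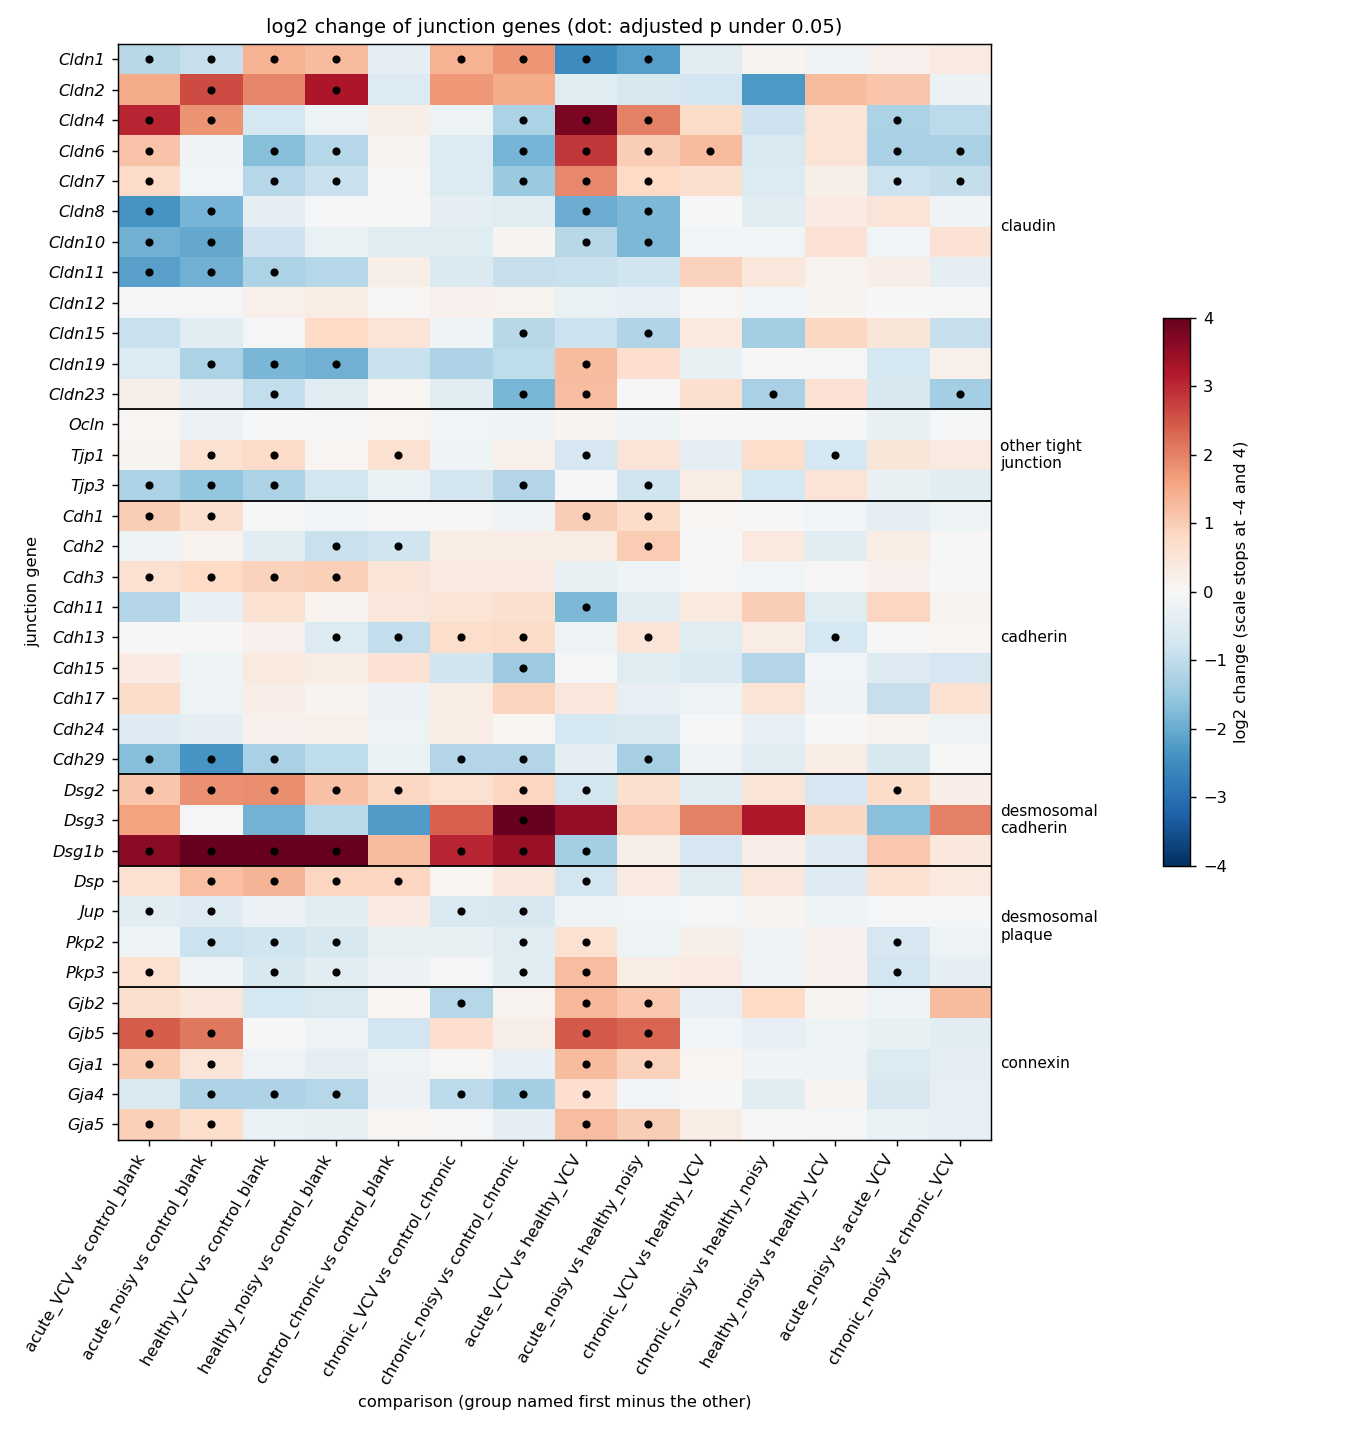
Rows are genes of the set by role and columns the 14 comparisons of groups, with colour for the log2 change (group named first minus the other, scale stopping at -4 and 4) and a dot where the adjusted p is under 0.05. Cldn4 and Gjb5 are red and Cldn8 is blue in the 4 columns that set acutely injured lungs against lungs without acute injury, and columns of chronic against uninjured ventilated lungs carry 1 dot each.

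The mode of ventilation, variable over constant tidal volumes, was compared within each arm. In acutely injured lungs 1 gene rose and 5 fell in acute_noisy over acute_VCV lungs, 15.8% of the set, while of all genes 11.9% rose and 12.3% fell, 24.2% in all. In chronically injured lungs 0 rose and 3 fell in chronic_noisy over chronic_VCV lungs, 7.89% of the set, while of all genes 0.563% rose and 1.86% fell, 2.43% in all. In uninjured lungs 0 rose and 2 fell in healthy_noisy over healthy_VCV lungs, 5.26% of the set, while of all genes 4.31% rose and 6.01% fell, 10.3% in all.

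In acutely injured lungs Cldn4 had 2188, 1471, 1285 and 1144 normalised counts in acute_noisy, against 4165, 2965 and 3559 in acute_VCV. All acute_noisy values were lower, a change of -1.26 ± 0.34 (adjusted p = 0.0123), lost without acute_VCV_040 (adjusted p = 0.0791). Cldn6 had 77.0, 86.9, 72.2 and 61.1 in acute_noisy, against 253, 136 and 175 in acute_VCV, lower, a change of -1.29 ± 0.33 (adjusted p = 0.00892), and Cldn7 had 1167, 1209, 1102 and 1249 in acute_noisy, against 2489, 1759 and 2313 in acute_VCV, lower, a change of -0.87 ± 0.21 (adjusted p = 0.00654). Neither overlapped, and both calls were lost without acute_VCV_040 (adjusted p = 0.0818 for Cldn6 and 0.056 for Cldn7). Of the basal markers, beside these claudins, 0 of 3 were called, and their part was not tested. Pkp3 had 525, 432, 463 and 484 in acute_noisy, against 902, 677 and 839 in acute_VCV, lower, a change of -0.75 ± 0.16 (adjusted p = 0.00407). Pkp2 was lower, a change of -0.68 ± 0.15 (adjusted p = 0.00461), also without overlap, beside cardiac muscle markers of which 6 of 7 were lower and whose part was not tested. Dsg2 rose by 0.74 ± 0.26 (adjusted p = 0.0444) with overlapping groups and lost its call without any of acute_VCV_040, acute_VCV_045, acute_noisy_047, acute_noisy_050 or acute_noisy_046 (adjusted p = 0.0768 to 0.167). A fit of only the libraries compared called 0 of the 38, with 9 at an unadjusted p under 0.05, and edgeR called 6. Series and mode cannot be told apart here. Ocln, Tjp1, Cdh1, Cdh2, Gja1, Gja5, Dsp and Jup were not called, at changes between -0.54 and 0.60.

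In chronically injured lungs Cldn7 had 546, 447 and 422 normalised counts in chronic_noisy, against 1263, 648 and 889 in chronic_VCV. It was lower without overlap, a change of -0.94 ± 0.22 (adjusted p = 0.0292), lost without any of chronic_noisy_079, chronic_noisy_084, chronic_VCV_067 or chronic_VCV_073 (adjusted p = 0.0596 to 0.194). Cldn23 and Cldn6 were lower, with changes of -1.37 ± 0.36 (adjusted p = 0.0447) and -1.30 ± 0.35 (adjusted p = 0.0493). The call of Cldn23 was lost without any of chronic_noisy_079, chronic_noisy_084, chronic_VCV_067 or chronic_VCV_073 (adjusted p = 0.0597 to 0.227) and that of Cldn6 without any of chronic_noisy_075, chronic_noisy_079, chronic_noisy_084, chronic_VCV_067 or chronic_VCV_073 (adjusted p = 0.0612 to 0.228). Chronic_noisy is wholly of series 14 and chronic_VCV wholly of series 15, and with the series as a covariate limma called 0 of 38, with 8 at an unadjusted p under 0.05, where edgeR without it called 1. Cldn4 was at -1.06 ± 0.37 and not called, and Ocln, Tjp1, Cdh1, Cdh2, Gja1, Gja5, Dsp and Jup were at -0.39 to 0.38. In uninjured lungs Tjp1 had 5116, 4550.1 and 5983 in healthy_noisy, against 8466, 8599.7, 8134 and 8279 in healthy_VCV, lower throughout, a change of -0.69 ± 0.20 (adjusted p = 0.0386). Cdh13 had 282, 258 and 179 in healthy_noisy, against 323, 439, 355 and 444 in healthy_VCV, lower, a change of -0.71 ± 0.19 (adjusted p = 0.0314). Cldn4, Ocln, Cdh1, Cdh2, Gja1, Gja5, Dsp and Jup were not called, at -0.51 to 0.50. Tjp1 lost its call without any of healthy_VCV_025, healthy_VCV_057, healthy_VCV_060, healthy_noisy_029, healthy_noisy_061 or healthy_VCV_062 (adjusted p = 0.0612 to 0.196), and Cdh13 without any of healthy_VCV_025, healthy_VCV_057, healthy_VCV_060, healthy_noisy_029, healthy_noisy_061, healthy_VCV_062 or healthy_noisy_078 (adjusted p = 0.0608 to 0.136). With the series as a covariate, or with the healthy_VCV libraries of either series alone, limma called 0 of 38, with 2 at an unadjusted p under 0.05 in the first case and 4 in each of the others. By edgeR on all libraries 2 were called.

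Whether the effect of mode differed between arms was tested as a difference of changes. Against the effect in uninjured lungs, that in acutely injured lungs was higher for 4 genes and lower for 6, 26.3% of the set, while of all genes 19.6% were higher and 19.4% lower, 39% in all. Lower were Cldn6 at -1.84 ± 0.47 (adjusted p = 0.00402), Cldn4 at -1.76 ± 0.48 (adjusted p = 0.00664), Cldn7 at -1.12 ± 0.29 (adjusted p = 0.00496), Pkp3 at -0.93 ± 0.23 (adjusted p = 0.00369), Pkp2 at -0.84 ± 0.21 (adjusted p = 0.0041) and, just under the threshold before rounding, Cldn23 at -1.19 ± 0.48 (adjusted p = 0.05). Higher were Dsg2 at 1.40 ± 0.37 (adjusted p = 0.0054), Tjp1 at 1.18 ± 0.28 (adjusted p = 0.00265), Dsp at 1.11 ± 0.35 (adjusted p = 0.0145) and Cdh13 at 0.71 ± 0.26 (adjusted p = 0.0368). Ocln, Cdh1, Cdh2, Gja1, Gja5 and Jup were at -0.35 to 0.73 and not called. Dsp lost its call without either acute_VCV_040 (adjusted p = 0.0569) or healthy_noisy_061 (0.0574) and Cdh13 without any of acute_VCV_040, acute_VCV_049, acute_noisy_050, healthy_VCV_057, healthy_VCV_062 or healthy_noisy_078 (adjusted p = 0.0519 to 0.128). Cldn23 lost its call without any 1 of 11 libraries (adjusted p = 0.0516 to 0.137): acute_VCV_040, acute_VCV_049, healthy_VCV_025, healthy_VCV_057, healthy_VCV_060, healthy_VCV_062, acute_noisy_046, acute_noisy_047, acute_noisy_050, healthy_noisy_061 or healthy_noisy_078.

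For chronically injured lungs, against the effect in uninjured lungs, 2 genes were higher and 5 lower, 18.4% of the set, while of all genes 15.7% were higher and 14% lower, 29.7% in all. Lower were Cldn23 at -1.93 ± 0.49 (adjusted p = 0.00729), Cldn6 at -1.85 ± 0.48 (adjusted p = 0.00826), Cldn15 at -1.77 ± 0.56 (adjusted p = 0.021), Cldn4 at -1.56 ± 0.50 (adjusted p = 0.0227) and Cldn7 at -1.19 ± 0.30 (adjusted p = 0.00751), and higher were Tjp1 at 1.04 ± 0.29 (adjusted p = 0.0116) and Cdh13 at 0.79 ± 0.27 (adjusted p = 0.0323). Ocln, Cdh1, Cdh2, Gja1, Gja5, Dsp and Jup were at -0.28 to 0.89 and not called. Cldn15 lost its call without either healthy_noisy_029 (adjusted p = 0.0557) or chronic_VCV_067 (0.0557), Cldn4 without any of chronic_noisy_084, healthy_noisy_061, chronic_VCV_067 or healthy_noisy_078 (adjusted p = 0.0526 to 0.0936) and Cdh13 without any of healthy_VCV_057, chronic_noisy_079, healthy_VCV_062, chronic_VCV_067, chronic_VCV_069 or healthy_noisy_078 (adjusted p = 0.0527 to 0.0999). Both differences use the same healthy_noisy and healthy_VCV libraries. With the series as a covariate, limma called 0 of 38 for chronic lungs, with 7 at an unadjusted p under 0.05, where edgeR without it called 7. The difference for acute lungs was not fitted that way, acute_VCV being wholly of series 12.

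**Figure D4:**
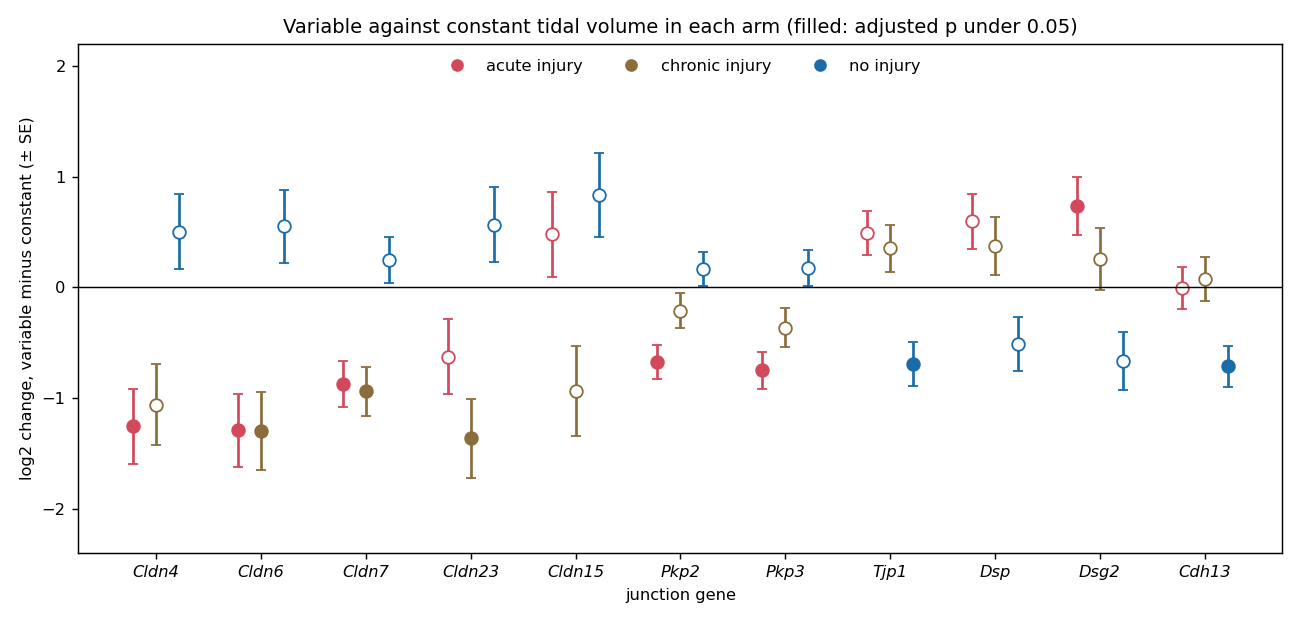
Points are log2 changes of variable over constant tidal volumes with their SE for 11 genes called in a comparison of modes or a difference between arms, from acutely injured (red) through chronically injured (brown) to uninjured lungs (blue). Filled points are called. Cldn4, Cldn6, Cldn7, Cldn23, Pkp2 and Pkp3 lie below 0 in both injured arms and above 0 in uninjured lungs, and Tjp1 and Cdh13 are the called genes of uninjured lungs.

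Ocln, Cldn12, Cdh17 (the liver-intestine cadherin) and Cdh24 were called in none of the 16 comparisons. Ocln, a membrane protein of tight junctions, averaged 1283 ± 209.7 normalised counts in acute_noisy lungs and 1577 ± 193 in acute_VCV lungs, against 1481 ± 51.9 in control_blank lungs (SD, n = 4, 3 and 3). Its levels in the 8 groups overlapped. Cldn12, a claudin that lacks the usual binding motif for scaffold proteins, averaged 469 ± 70.7 in acute_noisy and 457 ± 34.1 in acute_VCV lungs, against 477 ± 14.1 in control_blank lungs.

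Other genes of the same junctions were read from a list of 31 partners, of which 26 were found and tested. In acute_VCV over control_blank lungs 6 rose and 5 fell (42.3% of them against 37.3% of all genes), among them Pvrl1 (nectin) at 1.07 ± 0.28 (adjusted p = 0.00505), Esam (of endothelial tight junctions) at 1.06 ± 0.21 (adjusted p = 0.000423) and Perp (of desmosomes) at -1.38 ± 0.21 (adjusted p = 4.27e-05). In acute_noisy over control_blank lungs 10 rose and 4 fell (53.8% of them against 59.8% of all genes), led by Pvrl1 at 1.85 ± 0.27 (adjusted p = 6.92e-06) and Perp at -1.45 ± 0.20 (adjusted p = 4.5e-06). In healthy_VCV over control_blank lungs 15 rose and 2 fell (65.4% of them against 57.4% of all genes), led by Pvrl1 at 2.21 ± 0.27 (adjusted p = 1.32e-06), Mpp5 (a polarity scaffold) at 1.37 ± 0.24 (adjusted p = 4.95e-05) and Cgnl1 (paracingulin) at 1.34 ± 0.26 (adjusted p = 0.000175). In healthy_noisy over control_blank lungs 8 rose and 0 fell (30.8% of them against 32.1% of all genes), Ppl (periplakin of desmosomes) among them at 1.17 ± 0.21 (adjusted p = 0.00039). In acute_VCV over healthy_VCV lungs 2 rose and 14 fell (61.5% of them against 52.5% of all genes), with Mpp5 at -1.95 ± 0.24 (adjusted p = 6.94e-07) and Cgnl1 at -1.90 ± 0.26 (adjusted p = 3.38e-06), and in acute_noisy over healthy_noisy lungs 4 rose and 2 fell (23.1% of them against 26.7% of all genes). In chronic_noisy over control_chronic lungs 3 rose and 3 fell (23.1% of them against 37.2% of all genes), and in chronic_VCV over control_chronic lungs 2 rose and 3 fell (19.2% of them against 14.8% of all genes). In control_chronic over control_blank lungs 3 rose and 0 fell (11.5% of them against 14.9% of all genes), and in acute_noisy over acute_VCV lungs 4 rose and 1 fell (19.2% of them against 24.2% of all genes). In the difference of mode effects between acutely injured and uninjured lungs 11 were higher and 1 lower (46.2% of them against 39% of all genes), led by Cgnl1 at 1.69 ± 0.37 (adjusted p = 0.0016) and Mpp5 at 1.60 ± 0.34 (adjusted p = 0.00121). In that between chronically injured and uninjured lungs 7 were higher and 4 lower (42.3% of them against 29.7% of all genes). In each of the other 4 comparisons 0 to 4 of the 26 were called. That was 0% to 15.4% of them, against 2.43% to 10.3% of all genes. The median change of the 26 was 0.19 in acute_VCV and 0.50 in healthy_VCV lungs over control_blank.

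Of 16 transcription factors known to act on junction genes, 13 were found and tested. In acute_noisy over control_blank lungs 3 rose and 4 fell (53.8% of them against 59.8% of all genes), in acute_VCV over control_blank lungs 1 rose and 3 fell (30.8% of them against 37.3% of all genes), and in healthy_VCV over control_blank lungs 3 rose and 2 fell (38.5% of them against 57.4% of all genes). In acute_VCV over healthy_VCV lungs 2 rose and 4 fell (46.2% of them against 52.5% of all genes), and in chronic_noisy over control_chronic lungs 2 rose and 4 fell (46.2% of them against 37.2% of all genes). In 4 of these 5 comparisons, chronic_noisy being the exception, the share of factors called lay below that of all genes. Elsewhere it went either way. In acute_noisy over healthy_noisy lungs it was 30.8% against 26.7%, and in healthy_noisy over control_blank lungs 15.4% against 32.1%. Zeb1 and Zeb2, repressors of Cdh1, rose in acute_noisy over control_blank lungs by 1.26 ± 0.23 (adjusted p = 9.9e-05) and 2.24 ± 0.44 (adjusted p = 0.000164), a comparison in which Cdh1 also rose. In healthy_VCV over the same control_blank lungs they rose by 1.18 ± 0.23 (adjusted p = 0.000207) and 2.25 ± 0.44 (adjusted p = 0.000165), and in acute_VCV lungs they were not called, at 0.28 ± 0.25 and 0.89 ± 0.47. Grhl1, a grainyhead factor of epithelium, rose by 1.48 ± 0.30 (adjusted p = 0.000263) in acute_noisy, 1.11 ± 0.32 (adjusted p = 0.00945) in acute_VCV and 1.07 ± 0.30 (adjusted p = 0.0046) in healthy_VCV lungs over control_blank. Nkx2-1, a factor of lung epithelium, changed by -1.34 ± 0.26 (adjusted p = 0.000166) in acute_noisy, -1.12 ± 0.28 (adjusted p = 0.00311) in acute_VCV and -0.98 ± 0.26 (adjusted p = 0.00286) in healthy_VCV lungs over control_blank. Elf3, a factor of epithelial cells, changed by -1.20 ± 0.33 (adjusted p = 0.00857) in healthy_noisy and -1.42 ± 0.31 (adjusted p = 0.000483) in healthy_VCV lungs over control_blank, and rose by 1.37 ± 0.31 (adjusted p = 0.000728) in acute_VCV over healthy_VCV lungs. In the difference of mode effects between acutely injured and uninjured lungs Zeb2 was higher by 2.70 ± 0.62 (adjusted p = 0.00207) and Nkx2-1 was at -0.94 ± 0.37 (adjusted p = 0.0467).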

How the data were processed

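Poly-dT-selected RNA of 28 lung libraries was sequenced on a HiSeq 2000 from strand-specific dUTP libraries pooled by barcode, per the labels' protocols. The deposited table gives 1 signal per Ensembl 67 gene and library, which the authors made by dividing read counts by 1 size factor per library. The submitters' processing notes name CASAVA 1.8.0, BWA, bedtools 2.11, DESeq 1.8.3 and build rn4 without their roles. How strand and ambiguous reads were counted is not given in the sources used here. Overlapping genes, and near-identical members of 1 family, may therefore share reads.

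Whole reads were recovered by dividing each library's values by the smallest step between them, and 100% of values came out within 0.1 of a whole read. No 2 libraries of a group agreed within counting noise, the lowest chi-square per gene over 37 pairs being 13.5. Depth ran from 6024093 to 31923838 reads.

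Genes with a mean of at least 10 over all libraries (14908 of 17002) were tested with limma 3.58.1 (R 4.3.3, trend and robust) on log2(normalised count + 1), with 1 mean per group over all 28 libraries, so that all groups share 1 estimate of the spread. Tests were two-sided, with Benjamini-Hochberg adjustment over all genes. A fold change on this scale understates the change of low genes. Differences between arms were contrasts of the same fit. The filter left 38 of 47 genes that match by name. It uses the mean of all libraries, which high groups can carry over the minimum. Gjb5 averaged 35.8 in acute_noisy and 44.9 in acute_VCV lungs, against 4.7 to 7.73 in every other group. Dsg1b averaged 26.4 to 63.1 in ventilated groups, against 1.27 in control_blank and 3.99 in control_chronic lungs. Cldn2 averaged 9.29 to 45.2 in ventilated groups, against 3.43 in control_blank and 2.41 in control_chronic lungs. Their rises in those groups are descriptions, because the filter had already selected for them. Counts of calls given for the set and for its roles include these genes. Dsg3 passed through a few high libraries.

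Alternatives were a pseudocount of 10, no filter, quantile normalization, a fit of only the libraries compared, edgeR 4.0.16 (quasi-likelihood) on recovered reads, the number series as a covariate and leaving out each library. The covariate was a single term that set series 15 apart from the other series. Chosen after seeing the data were control_chronic without its 2 libraries of lowest depth, and acute_noisy or healthy_VCV with the libraries of 1 series only. The main limma fit and edgeR were also run on simulated counts, with changes planted in acute_VCV, healthy_noisy, chronic_noisy or control_chronic. Only comparisons that name the changed group first were scored. The other comparisons, the differences between arms and the other alternatives were not checked in this way.

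The genes and lists were chosen with earlier results of these data known. Within each comparison of groups the rule was to name the 5 highest and 5 lowest called changes without overlap, where the group with more reached a mean of 50, within each difference of effects 3 and 3, and in both Cldn4, Ocln, Tjp1, Cdh1, Cdh2, Gja1, Gja5, Dsp and Jup. Other genes of the set are named, after their values were seen, to account for their calls, and some genes of the set are counted but not reported here. Sequences are from the RefSeq promoter table of build GRCr8, and the order of neighbouring genes is from RefSeq, where 36 of 38 genes matched by symbol. Figures were drawn with matplotlib 3.10.9 in Python 3.11.15.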

Additional observations from a re-analysis of the deposited data

Results flagged for a closer look

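A single library stood apart from the rest of its group in 9 sets of values, 8.41% of those tested, where chance gives about 1 in 20. Only acute_noisy, healthy_VCV and control_chronic, with 4 or 5 libraries each, were examined, and groups of 3 libraries were not. Among claudins, Cldn15 had 81.36 normalised counts in healthy_VCV_062, against 159.71 to 168.97 in the others, and Cldn2 had 36.64 in healthy_VCV_057, against 9.48 to 11.39. In control_chronic_114, Cldn23 had 77.32, against 134.94 to 150.27 in the others, and Cldn7 had 1100.36, against 1319.36 to 1420.33. Cldn8 had 38.13 in control_chronic_113, against 26.92 to 29.74. Dsg3 had 127.19 in acute_noisy_046, against 0 to 0.84, and 1.75 in healthy_VCV_060, against 0 in the others. Jup had 8351.82 in healthy_VCV_025, against 7492.12 to 7606.68, and Tjp1 had 9109.34 in control_chronic_117, against 6769.54 to 7265.38.

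The log2 effect of variable over constant tidal volumes differed between arms for several genes. Acutely injured minus uninjured lungs gave -1.84 for Cldn6, -1.76 for Cldn4, -1.19 for Cldn23, -1.12 for Cldn7, -0.93 for Pkp3, -0.84 for Pkp2, 0.71 for Cdh13, 1.11 for Dsp, 1.18 for Tjp1 and 1.40 for Dsg2. Chronically injured minus uninjured lungs gave -1.93 for Cldn23, -1.85 for Cldn6, -1.77 for Cldn15, -1.56 for Cldn4, -1.19 for Cldn7, 0.79 for Cdh13 and 1.04 for Tjp1. The chronic_VCV and healthy_noisy libraries are of number series 15 and chronic_noisy of series 14, acute_VCV is of series 12, and the part of the series in these differences was not tested for the acute arm.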

How the results depend on the processing

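No paired analysis was possible because no 2 groups hold a number in common. No call changed direction. Of 169 calls of single genes, 163 held with edgeR, 161 with quantile normalization, 165 with a pseudocount of 10, 165 with no filter and 120 in fits of only the libraries compared. With the number series as a covariate 6 of the 31 calls it could move held, all in acute_noisy over healthy_noisy. The covariate cannot move the 19 calls of acute_VCV over control_blank, which lies within 1 series. Quantile normalization moved the median of all genes in healthy_VCV over control_blank lungs to -0.13, against -0.03 without it. The causes of the moves below were not tested. Shares of all genes called were not counted in these settings, so the counts cannot be read as particular to the junction genes.

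Fits of only the libraries compared called 5 of the 38 genes in healthy_noisy over control_blank, 2 in control_chronic over control_blank, 0 in acute_noisy over healthy_noisy, 2 in chronic_noisy over healthy_noisy, 5 in healthy_noisy over healthy_VCV, 0 in acute_noisy over acute_VCV, 0 in chronic_noisy over chronic_VCV and 11 in the difference of mode effects between chronic and uninjured lungs. EdgeR called 3 in control_chronic over control_blank, 0 in chronic_VCV over healthy_VCV (5 at an unadjusted p under 0.05), 2 in chronic_noisy over healthy_noisy and 1 in chronic_noisy over chronic_VCV. A pseudocount of 10 gave 0, 2 and 1 in the last 3 comparisons, and quantile normalization gave 3 in chronic_noisy over healthy_noisy. The series covariate gave 6 in acute_noisy over healthy_noisy and 0 in chronic_VCV over healthy_VCV, chronic_noisy over healthy_noisy, healthy_noisy over healthy_VCV, chronic_noisy over chronic_VCV and the chronic difference. In the comparisons fitted only without the covariate, series and group cannot be told apart.

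Of the settings chosen after seeing the data, leaving out control_chronic_113 and control_chronic_114 gave 3 in control_chronic over control_blank and 4 in chronic_VCV over control_chronic. With acute_noisy of series 15 only there were 14 over control_blank and 2 over healthy_noisy, and with series 14 only 10 over acute_VCV. With the lone healthy_VCV library of series 15, assumed to vary like the other groups, there were 11 in acute_VCV over healthy_VCV, 0 in chronic_VCV over healthy_VCV, 0 in healthy_noisy over healthy_VCV, 4 in the acute and 0 in the chronic difference. With healthy_VCV of series 14 only there were 0 in healthy_noisy over healthy_VCV.

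Leaving out 1 library at a time gave 15 to 18 calls in acute_VCV over control_blank, 18 to 25 in acute_noisy over control_blank, 15 to 18 in healthy_VCV over control_blank, 9 to 16 in healthy_noisy over control_blank, 1 to 5 in control_chronic over control_blank, 4 to 9 in chronic_VCV over control_chronic and 11 to 17 in chronic_noisy over control_chronic. It gave 19 to 23 in acute_VCV over healthy_VCV, 9 to 22 in acute_noisy over healthy_noisy, 0 to 3 in chronic_VCV over healthy_VCV, 0 to 2 in chronic_noisy over healthy_noisy, 0 to 1 in healthy_noisy over healthy_VCV, 2 to 10 in acute_noisy over acute_VCV and 0 to 4 in chronic_noisy over chronic_VCV. The acute difference had 7 to 12 and the chronic one 4 to 8. Depth limits Dsg1b, Dsg3, Cldn2, Cldn8 and Gjb5, which rest on few reads in some groups.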
